A study of Homo sapiens with 12 samples.

Results

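The APOBEC3 cytidine deaminases were described across the 4 groups of an mRNA-seq experiment in HCC1806 cells, a human triple-negative breast cancer line with basal features. The family was taken as the 7 genes APOBEC3A, APOBEC3B, APOBEC3C, APOBEC3D, APOBEC3F, APOBEC3G and APOBEC3H. Of these 7, APOBEC3B, APOBEC3C, APOBEC3F and APOBEC3G were found by their Ensembl identifiers among the 17013 genes of the table, and the other 3 were not analysed here. The lowest mean of any gene in its highest group was 10.7 normalized reads, so the 4 genes described are ones with reads above such a level. Normalized reads are the reads of a gene divided by the size factor of its library.

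Cells were transfected with non-targeting control siRNA (siNT) or with a pool of 4 siRNAs against MLK4 (siMLK4), a mixed-lineage kinase encoded by MAP3K21, and then given 1 μM doxorubicin, a topoisomerase II poison, for 24 h or no drug. The cells without drug, called vehicle here, carry the label DMSO, while the methods describe them as untreated. The groups were siNT with vehicle, siNT with doxorubicin, siMLK4 with vehicle and siMLK4 with doxorubicin, with 3 libraries each and 12 in all, and all came from this 1 cell line with no added transgene. The libraries held 16759025 to 19302248 reads. The study asked how MLK4 alters the response of these cells to doxorubicin, and the transfections were made in triplicate, with nothing in the labels to show separate experiments, so p-values measure the spread between these libraries. The titles of the vehicle libraries carry time 0 while those with doxorubicin carry 24 h, whereas the study's own description can be read as 24 h for both, and if the vehicle cells were harvested earlier, time in culture and drug cannot be told apart.

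APOBEC3 enzymes convert cytosine to uracil in single-stranded DNA. They restrict retroviruses and mobile elements, and APOBEC3A and APOBEC3B are known as sources of clustered and dispersed C-to-T and C-to-G mutations in breast and other cancers. Uracil left in DNA is removed by UNG and base excision repair or copied by translesion polymerases. Transcription of APOBEC3B is known to be held down by the E2F and DREAM regulators and to be raised by PKC and non-canonical NF-κB signalling, while APOBEC3F and APOBEC3G respond to interferon in several cell types.

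The 4 siRNAs of the pool are shown because they define the knock-down arm. The strand with the sequence of the target is given 5′ to 3′, and the capitals mark the bases that pair with positions 2 to 8 of the guide strand, the seed.
siMLK4_1: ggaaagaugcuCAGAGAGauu
siMLK4_2: aggagaagcccAAGGUAAauu
siMLK4_3: agaagaaacgaGAGGGAAuuu
siMLK4_4: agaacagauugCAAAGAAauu
All 4 sequences occurred in the MAP3K21 transcript. The 3′UTR of the canonical transcript was read for each gene. None of the 4 capital words was found in those of APOBEC3B, APOBEC3C, APOBEC3F or APOBEC3G, which have 334, 1965, 3277 and 322 bases. Of 13583 genes with such a 3′UTR, 44.3% held at least 1 of the words. A short 3′UTR leaves little room for a match, and lengths were not matched. A match of this kind is a description of the letters and not a site.

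MAP3K21 was read first as the check on the siRNA labels. With vehicle its 3 siNT libraries held 553, 670 and 674 normalized reads and its 3 siMLK4 libraries 103, 94.7 and 88.7. With doxorubicin the siNT libraries held 758, 856 and 772 and the siMLK4 libraries 113, 138 and 94.4. The siMLK4 libraries lay below all siNT libraries under both treatments, at 15.1% of the siNT mean with vehicle (log2 fold change −2.24 ± 0.12 SE, limma adjusted p = 9.7e-08) and 14.5% with doxorubicin (−2.37 ± 0.12 SE, limma adjusted p = 1.1e-07).

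The cells carried basal epithelial markers in every group. KRT5, a basal keratin, averaged 20878, 8817, 32257 and 7035 normalized reads in the 4 groups in the order given above, and all 9 basal epithelial markers listed had reads, summed to 78444, 45481, 72944 and 34163. Between siNT and siMLK4 cells with vehicle the means of these markers went both ways, with KRT6A at 13800 and 6001, KRT14 at 6001 and 2870, KRT17 at 4118 and 2602, TP63 at 4837 and 3510 and EPCAM at 13823 and 8897, but CDH1 at 4274 and 5568, CDH3 at 4528 and 4855 and EGFR at 6186 and 6383. Among luminal or hormone receptor markers, GATA3, a luminal transcription factor, averaged 1304 to 2442 normalized reads over the groups, ERBB2, the HER2 gene, 1459 to 1893, and FOXA1, another luminal factor, 234 to 286. ESR1, the oestrogen receptor gene, averaged between 46.5 and 117 normalized reads, and PGR, the progesterone receptor gene, was at 0 in all vehicle libraries and averaged 13.3 and 11.7 with doxorubicin in siNT and siMLK4 cells, the groups through which it is in the table.

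The 4 measured genes lie in 1 cluster on chromosome 22 (GRCh38, GENCODE release 44), which spans chr22:38952741-39104067 from APOBEC3A to APOBEC3H, or 151 kb, with each gene on the plus strand. APOBEC3B (ENSG00000179750) occupies chr22:38982347-38992804 and APOBEC3C (ENSG00000244509) chr22:39014257-39020352. APOBEC3F (ENSG00000128394) occupies chr22:39040604-39055972 and APOBEC3G (ENSG00000239713) chr22:39077067-39087743.

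The genes arose by duplication, and parts of their transcripts are identical. Of all 100-base stretches of APOBEC3B transcripts, 14.7% occurred in another gene, with 8.39% in APOBEC3A. The share was 6.78% for APOBEC3F, 3.54% for APOBEC3G and 0% for APOBEC3C. With 50-base stretches the shares were 26.9% for APOBEC3B, 12.03% for APOBEC3F, 5.76% for APOBEC3G and 1.21% for APOBEC3C. Over canonical transcripts alone, APOBEC3G shared more than APOBEC3F, at 7.30% against 5.96% of 100-base stretches. By either measure the share was largest for APOBEC3B, whose counts are the least certain where reads could be placed in more than 1 gene, and smallest for APOBEC3C. APOBEC3B overlaps the antisense gene APOBEC3B-AS1 over 244 exonic bases, but reads were assigned by strand.

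APOBEC3C fell with doxorubicin in both siRNA arms, to 23.7% and 23.2% of its vehicle level, and it was the most abundant of the 4 genes throughout. APOBEC3G fell in siNT cells. APOBEC3B and APOBEC3F passed the test in no comparison, and none of the 4 genes differed between siMLK4 and siNT cells past the threshold. A gene was called when its adjusted p in limma was under 0.01 and its absolute log2 fold change over 0.75, with p-values adjusted over all 17013 genes. With doxorubicin, 22.7% of all genes were called in siNT cells and 23.2% in siMLK4 cells, and 10.6% were called as lower in each arm. Of the 4 measured APOBEC3 genes, 2 were called as lower in siNT cells and 1 in siMLK4 cells. At an adjusted p under 0.05 with no fold threshold, 57.3% and 57.9% of all genes passed, and 3 of the 4 in each arm, APOBEC3B in siNT cells not under every scaling.

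**Figure D1:**
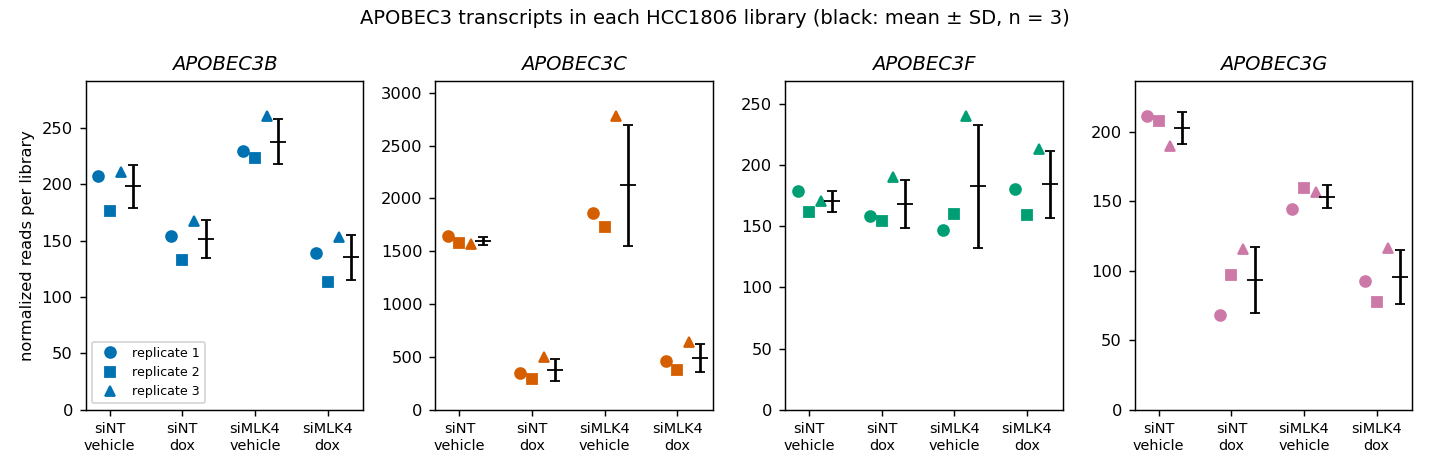
Normalized reads of APOBEC3B, APOBEC3C, APOBEC3F and APOBEC3G in each of the 12 libraries, by group on the horizontal axis, with a separate vertical axis from 0 for each gene. Symbols mark the replicate number and the black bar is the mean ± SD of 3 libraries. All APOBEC3C libraries with doxorubicin (292 to 638) lie below all with vehicle (1571 to 2778), while those of APOBEC3F overlap between all groups.

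APOBEC3C encodes a small member with 1 deaminase domain that is expressed in many tissues. The 3 siNT libraries with vehicle held 1642, 1579 and 1571 normalized reads of APOBEC3C. With doxorubicin they held 348, 292 and 496. Each drug-treated library was far below the lowest vehicle library, and the mean went from 1597 ± 38.8 to 379 ± 105 (SD, n = 3), a drop well beyond the spread between libraries.

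In siMLK4 cells the APOBEC3C counts were 1863, 1731 and 2778 normalized reads with vehicle. They were 466, 374 and 638 with doxorubicin, so the groups again did not overlap. The means of 2124 ± 571 and 492 ± 134 (SD, n = 3) put the drug-treated level at 23.2% of vehicle.

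On the variance-stabilized scale, which is close to log2 for well-expressed genes, the doxorubicin response of APOBEC3C was −1.96 ± 0.20 in siNT cells (SE, 95% interval −2.40 to −1.53, limma adjusted p = 2.9e-06). It was −2.00 ± 0.20 in siMLK4 cells (95% interval −2.43 to −1.56, limma adjusted p = 2.6e-06). Of the 17013 genes, 65 had a lower log2 fold change in siNT cells and 57 in siMLK4 cells. The difference between the responses was −0.03 ± 0.29 (95% interval −0.65 to 0.59, limma adjusted p = 0.98), a wide interval that reaches to either side of 0. In bulk RNA, fewer cells that hold a transcript and less of it per cell cannot be told apart, which applies to each result given here.

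APOBEC3G encodes a member with a pair of deaminase domains, best known for restricting HIV in lymphocytes. Its siNT libraries held 211, 208 and 190 normalized reads with vehicle. With doxorubicin they held 68.3, 96.7 and 116. All drug-treated libraries were lower than all vehicle libraries, and replicate 1 was the lowest of them. The mean fell from 203 ± 11.6 to 93.5 ± 23.8 (SD, n = 3), or 46.1% of vehicle, with a log2 fold change of −0.85 ± 0.14 (SE, limma adjusted p = 0.00014). Without siNT doxorubicin replicate 1 the log2 fold change was −0.71, and scaled to library totals it was −0.67, both under the fold threshold.

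In siMLK4 cells APOBEC3G had 144, 159 and 157 normalized reads with vehicle. It had 92.4, 77.5 and 116 with doxorubicin. These groups did not overlap either, but the start was lower, and the drug-treated mean was 62.1% of vehicle. The log2 fold change of −0.51 ± 0.14 (SE, limma adjusted p = 0.0063) did not pass the fold threshold. The responses differed between the arms by 0.34 ± 0.20 (95% interval −0.08 to 0.76, limma adjusted p = 0.47), so the call in 1 arm and not in the other is not shown to be a difference between them. Without siNT doxorubicin replicate 1 this difference was 0.20.

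As APOBEC3G is abundant in lymphocytes, the immune markers were read beside it. Of 13 immune markers listed, 4 had values and the other 9, CD3E, CD3D and CD8A among them, were not analysed here. The 4 summed to 57.5, 70.8, 81.9 and 69.8 normalized reads in siNT with vehicle, siNT with doxorubicin, siMLK4 with vehicle and siMLK4 with doxorubicin. CSF1R, a macrophage receptor gene and the most abundant of the 4 in siNT cells with vehicle, averaged 28.1, 23.1, 40.0 and 13.6 in the same order, and CD4, a T cell and macrophage coreceptor gene, 12.6, 2.34, 13.4 and 1.49. PTPRC, the common leukocyte antigen, averaged 5.48, 20.3, 1.75 and 17.9, and CD14, a monocyte receptor gene, 11.4, 25.0, 26.8 and 36.9. PTPRC reached the lowest level in the table through its doxorubicin groups alone and CD4 through its vehicle groups alone, so nothing is read from their directions. Among fibroblast markers 3 of 6 had values, COL1A1, PDGFRB and LUM, which summed to 439, 291, 743 and 426, with COL1A1 the most abundant, at 286, 267, 529 and 405. LUM averaged 138, 21.1, 190 and 16.5 and PDGFRB 14.1, 2.86, 23.6 and 4.56, and PDGFRB is in the table through its vehicle groups alone. LUM had the lower mean with the drug in each arm. The part of these immune and fibroblast transcripts in the result was not tested.

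APOBEC3B encodes a nuclear member, the one most often linked to mutation in breast tumours. With vehicle its siNT libraries held 208, 176 and 211 normalized reads. With doxorubicin they held 154, 133 and 167. The groups were separated by a small gap, and the mean of 152 ± 17.1 was 76.4% of the vehicle mean of 198 ± 19.1 (SD, n = 3). The log2 fold change was −0.31 ± 0.12 (SE, limma adjusted p = 0.042), which is not past either threshold. With library totals it was −0.12 (limma adjusted p = 0.41) and with upper-quartile scaling −0.21 (limma adjusted p = 0.17).

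The siMLK4 libraries held 229, 223 and 261 normalized reads of APOBEC3B with vehicle. They held 139, 113 and 153 with doxorubicin. The gap between the groups was wider than in siNT cells, and the drug-treated mean was 56.9% of vehicle. The log2 fold change of −0.65 ± 0.12 (SE, limma adjusted p = 0.00041) passed the p threshold but not the fold threshold. It passed both, at −0.82, −0.79 and −0.82, when limma was run on log2(normalized reads + 1), on log2(normalized reads + 8) and as limma-voom on the reads. The deposited scale, on which log2 fold changes here were taken unless another setting is named, compresses changes of genes with few reads. The responses of APOBEC3B differed by −0.34 ± 0.17 between the arms (95% interval −0.71 to 0.03, limma adjusted p = 0.39).

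APOBEC3F encodes another restriction factor with a pair of deaminase domains. Its siNT libraries held 178, 162 and 171 normalized reads with vehicle. They held 159, 155 and 191 with doxorubicin. In siMLK4 cells the counts were 147, 160 and 240 with vehicle and 181, 159 and 213 with doxorubicin. The libraries overlapped between all 4 groups, and the means were 170, 168, 183 and 184. The log2 fold change with doxorubicin was −0.02 in siNT cells (95% interval −0.33 to 0.29) and 0.03 in siMLK4 cells (−0.29 to 0.34), intervals that lie within the fold threshold on both sides. Its sign in siNT cells turned under library totals (0.17) and upper-quartile scaling (0.076).

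The vehicle and drug-treated libraries did not overlap for 3 of the 4 genes, APOBEC3B, APOBEC3C and APOBEC3G, in each siRNA arm. The same was true of 62.4% of all genes in siNT cells and 63.8% in siMLK4 cells.

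**Figure D2:**
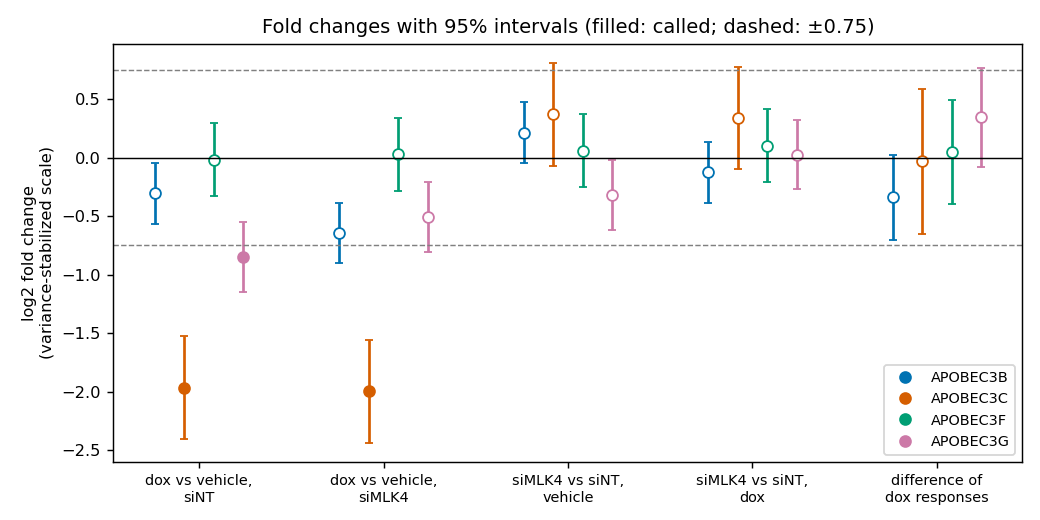
Log2 fold change on the variance-stabilized scale, with 95% intervals from limma, for 4 APOBEC3 genes in each of 5 comparisons. Filled points were called and the dashed lines mark the fold threshold of 0.75. APOBEC3C stands near −2 in both doxorubicin comparisons, APOBEC3G at −0.85 in siNT cells is the other filled point, and no point is filled in the siMLK4 comparisons or the difference of responses.

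MLK4 knock-down gave no call among the 4 genes. Across all genes, limma called 5.65% with vehicle and 5.58% with doxorubicin. At an unadjusted p under 0.05, where 37.0% and 37.1% of all genes passed, 1 of the 4 passed with vehicle, APOBEC3G, and 0 with doxorubicin, and limma-voom called 0 in each. With vehicle, the siMLK4 libraries of APOBEC3C and APOBEC3B were all above the siNT libraries, and those of APOBEC3G were all below. The groups did not overlap for 37.8% of all genes in that comparison.

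The siMLK4 difference of APOBEC3C with vehicle was 0.37 ± 0.20 on the log2 scale (SE, limma adjusted p = 0.21), and siMLK4 replicate 3, at 2778 normalized reads, stood above its group. Without that library the difference was 0.16. For APOBEC3B the difference was 0.21 ± 0.12 (SE, limma adjusted p = 0.22), and for APOBEC3G it was −0.32 ± 0.14 (SE, limma adjusted p = 0.11). With library totals these were 0.33 and −0.20. APOBEC3F was at 0.06, and at −0.11 without siMLK4 vehicle replicate 3.

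With doxorubicin the siMLK4 and siNT libraries overlapped for each of the 4 genes, while 43.9% of all genes had groups that did not. The siMLK4 difference was 0.34 for APOBEC3C (95% interval −0.10 to 0.78), 0.10 for APOBEC3F (−0.21 to 0.42), 0.03 for APOBEC3G (−0.27 to 0.32) and −0.13 for APOBEC3B (−0.39 to 0.13). The interval for APOBEC3C reaches past the fold threshold. In this comparison equally numbered libraries deviated together. Within the 3 pairs the siMLK4 difference of APOBEC3C was 0.37, 0.31 and 0.33. Its limma adjusted p was 0.098 with the replicate block and 0.25 without it. The block was fitted over all 4 groups and not to these pairs alone, so it does not test the pair differences. For APOBEC3F the pair differences were 0.15, 0.032 and 0.13, and for APOBEC3B −0.11, −0.17 and −0.097. For APOBEC3G they were 0.28, −0.21 and 0.0049. With the block, limma adjusted p was 0.58, 0.38 and 0.91 for these genes. The share of all genes whose 3 pairs go in 1 direction was not determined, so nothing is read from the signs. In the fit without the block, with 1 library left out and its pair kept, the value of APOBEC3C was 0.15 without siMLK4 doxorubicin replicate 3, and 0.19 and 0.53 without siNT doxorubicin replicates 2 and 3, and with 1 library left out APOBEC3B ranged from −0.20 to −0.037 and APOBEC3F from 0.015 to 0.18. In the difference of doxorubicin responses, limma called 0.276% of all genes and none of the 4, with 0 of 4 at an unadjusted p under 0.05, where 14.5% of all genes passed, and 0 called by limma-voom.

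Levels were compared between genes per kilobase of the canonical transcript. APOBEC3C stood first in each library, at 604 ± 14.7 normalized reads per kb in siNT cells with vehicle and 143 ± 39.8 with doxorubicin (SD, n = 3). APOBEC3B averaged 125 and 95.3 per kb in the same groups, APOBEC3G 130 and 59.8, and APOBEC3F 37.9 and 37.4. In siNT cells with vehicle the ranges of APOBEC3G and APOBEC3B overlapped, as they did in siMLK4 cells with doxorubicin, where APOBEC3B averaged 85.1 and APOBEC3G 61.0 per kb. All other neighbours in the order were separated, with APOBEC3F last, at 41.0 per kb in siMLK4 cells with doxorubicin. The order of APOBEC3G and APOBEC3F depends on the length used, since APOBEC3G has 1564 bases in its canonical transcript and 5375 over all annotated exons. With the latter APOBEC3G averaged 37.8 per kb in siNT cells with vehicle and 17.4 with doxorubicin, against 32.7 and 32.2 for APOBEC3F. In siNT cells with vehicle the order of APOBEC3G and APOBEC3B also turned, with APOBEC3B at 104.7 per kb over all exons.

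The summed level of the 4 genes was 896 ± 26.3 normalized reads per kb in siNT cells with vehicle and 336 ± 64.1 with doxorubicin (SD, n = 3). It was 1092 ± 241 and 373 ± 81.4 in siMLK4 cells. APOBEC3C made up 67.4% of this sum in siNT cells with vehicle, 42.2% with doxorubicin, and 73.1% and 49.5% in siMLK4 cells. The share of APOBEC3C was lower with the drug in both arms.

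The ratio of APOBEC3C to APOBEC3B per kb ranged from 4.48 to 5.38 in siNT libraries with vehicle. With doxorubicin it ranged from 1.32 to 1.78. In siMLK4 libraries the ranges were 4.66 to 6.41 and 1.98 to 2.502. The drug-treated and vehicle ranges were apart in both arms. Between the siRNA arms the ranges overlapped with vehicle and were apart with doxorubicin. For the ratio of APOBEC3C to APOBEC3F it was the other way round, with 15.6 to 16.6 in siNT and 18.3 to 21.5 in siMLK4 libraries with vehicle, and 3.21 to 4.42 and 3.99 to 5.09 with doxorubicin. The ratio of APOBEC3C to APOBEC3G ranged from 4.50 to 4.90 in siNT and from 6.42 to 10.5 in siMLK4 libraries with vehicle, and from 1.79 to 3.01 and 2.85 to 3.25 with doxorubicin. A ratio taken within a library does not depend on its size factor. The ratios were not tested. Between the siRNA arms, single genes had groups that did not overlap for 37.8% of all genes with vehicle and 43.9% with doxorubicin.

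**Figure D3:**
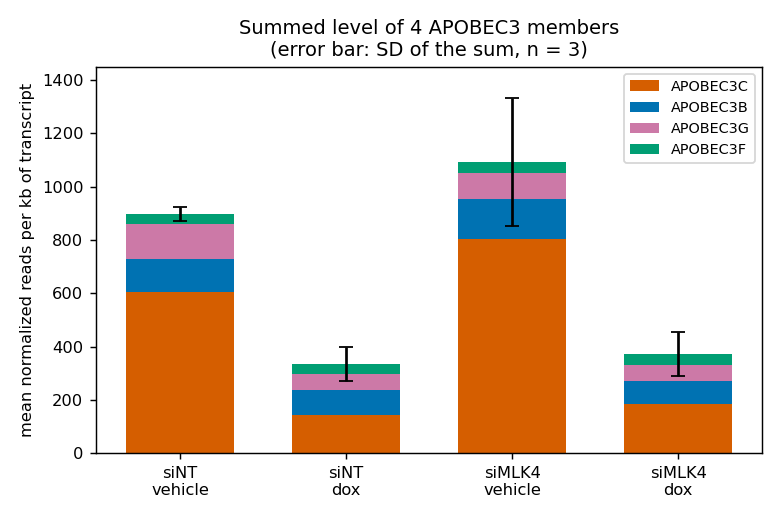
Mean normalized reads per kb of canonical transcript for 4 APOBEC3 genes, stacked by group, with error bars for the SD of the sum over 3 libraries. The sum was 896 and 1092 with vehicle and 336 and 373 with doxorubicin in siNT and siMLK4 cells, and the APOBEC3C block accounts for most of the drop.

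The spread between replicates differed between groups. For APOBEC3C the coefficient of variation was 2.43% in siNT cells with vehicle, where counting error alone gives 2.64%. In the other 3 groups it was 26.9% to 27.8%, against 2.21% to 5.10% from counting. Of all genes, 2.87% had a smaller coefficient of variation in siNT cells with vehicle and 74.8% to 83.9% in the other groups. Replicate 3 had the highest APOBEC3B value in all 4 groups, and the highest APOBEC3C value in all but siNT with vehicle.

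Over the 12 libraries, Pearson's r on the deposited scale was 0.92 between APOBEC3B and APOBEC3C, 0.86 between APOBEC3C and APOBEC3G, and 0.14 to 0.27 between APOBEC3F and the others. After the group means were removed, r was 0.91 for APOBEC3C and APOBEC3F and 0.85 for APOBEC3B and APOBEC3C. APOBEC3F thus had little in common with APOBEC3C over all 12 libraries and much within groups. The other pairs within groups ranged from 0.41 (APOBEC3B and APOBEC3G) to 0.77 (APOBEC3B and APOBEC3F), so a positive r there was not particular to APOBEC3C and APOBEC3F. These are descriptions over 12 libraries that share size factors and groups.

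The genes outside the family whose pattern over the 12 libraries was most like that of APOBEC3C, among 11890 protein-coding genes with at least 10 reads in each library, were GGT6 (Pearson's r = 0.996), SP100 (0.994) and C11orf54 (0.991). SP100, a component of PML nuclear bodies, averaged 1342, 661, 1599 and 777 normalized reads in siNT with vehicle, siNT with doxorubicin, siMLK4 with vehicle and siMLK4 with doxorubicin. For APOBEC3B they were LYPD6B (0.981), RAB11A (0.977) and NDFIP2 (0.970). For APOBEC3G they were PLD6 (0.981), SMIM15 (0.980) and ADSL (0.974), and for APOBEC3F, whose values moved little between groups, TMEM9 (0.871), LSM3 (0.870) and TM9SF1 (0.864).

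The neighbours of the cluster did not share 1 direction. Within 250 kb of the cluster, 39 genes are annotated and 14 of them had values, the 4 APOBEC3 genes and 10 others. RPL3, a ribosomal protein gene 360 kb from the left end of the cluster, fell in both arms, with log2 fold changes of −1.87 and −1.88. NPTXR, a neuronal pentraxin receptor gene on the other side, rose by 1.09 and 1.20. CBX6 and CBX7, Polycomb genes on either flank of the cluster, were at −0.41 and −0.33 and at −0.39 and −0.11 and were not called.

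Of the other neighbours, GTPBP1 rose by 0.82 and SYNGR1 fell by 0.83 in siMLK4 cells, at 0.50 and −0.59 in siNT cells without a call. DNAL4 was at 0.64 and 0.65, PDGFB at 0.19 and 0.31, SUN2 at −0.37 and 0.13 and the non-coding gene ENSG00000272669 at 0.63 and 0.46, none called. The calls of GTPBP1 and SYNGR1 were lost without siMLK4 vehicle replicate 3 (0.71 and −0.74) or siMLK4 doxorubicin replicate 2 (0.71 and −0.74), and that of SYNGR1 with library totals (−0.69). Between siMLK4 and siNT cells, NPTXR was the one neighbour called, higher by 0.93 with vehicle and by 1.03 with doxorubicin. Within the cluster, APOBEC3C lies between APOBEC3B and APOBEC3F, whose responses were −0.31 and −0.02 in siNT cells beside its −1.96.

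**Figure D4:**
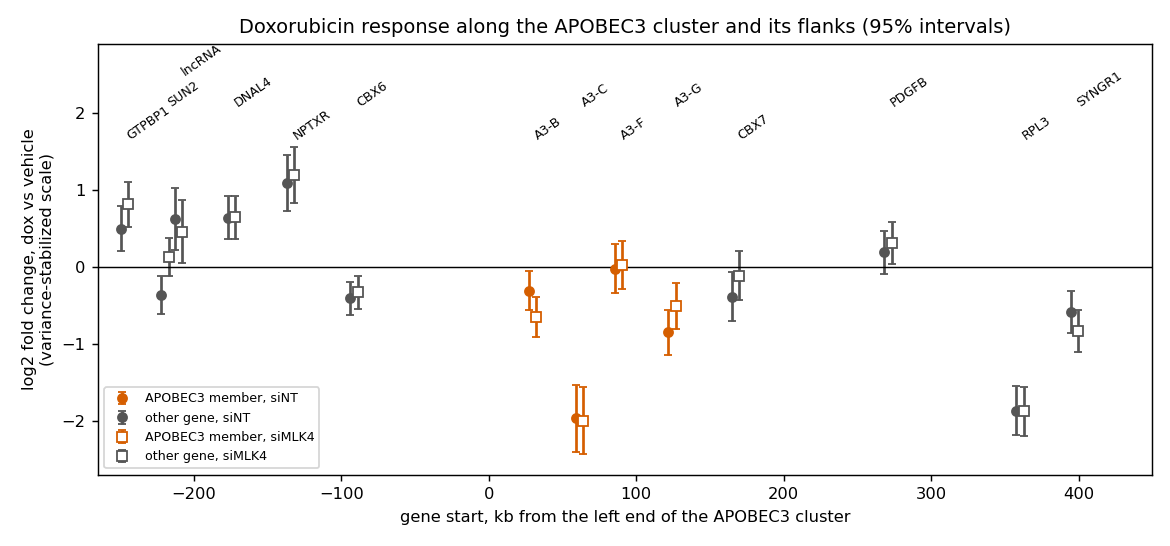
Log2 fold change with doxorubicin, with 95% intervals from limma, for the 4 APOBEC3 genes (orange) and 10 other genes within 250 kb of the cluster (grey), by distance of the gene's start from the left end of the cluster in kb. Filled circles are siNT cells and open squares siMLK4 cells, drawn slightly apart. APOBEC3C and RPL3 lie near −2, NPTXR lies above 1, and the genes beside APOBEC3C lie nearer to 0.

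Lists of genes that act upstream, downstream or beside APOBEC3 were read for context, with 133 of 139 listed genes measured in 8 lists. In uracil and base excision repair, 3 of 16 genes were called with doxorubicin in siNT cells, 1 higher and 2 lower, and 4 in siMLK4 cells, 1 higher and 3 lower. The list had a median log2 fold change of −0.12 and −0.0053 in these arms, beside 0.0046 and 0.018 over all genes. UNG, the main glycosylase that removes uracil from DNA, fell from 1979 ± 63.5 to 1072 ± 57.5 normalized reads in siNT cells (log2 fold change −0.85, limma adjusted p = 5.4e-06). In siMLK4 cells it fell from 1752 ± 52.9 to 792 ± 71.95 (−1.10, limma adjusted p = 6.9e-07).

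LIG3, a ligase that seals repaired strands, fell by 1.01 in siNT cells and by 0.84 in siMLK4 cells on the log2 scale. PARP1, a sensor of strand breaks, fell by 0.78 in siMLK4 cells and was at −0.72 in siNT cells. MBD4, a glycosylase that removes thymine or uracil opposite guanine, rose by 0.83 and 1.09. Scaled to library totals, which moved the median of all genes by 0.18 in siNT cells and by 0.14 in siMLK4 cells, UNG was at −0.62 in siNT cells (−0.74 with upper-quartile scaling), and LIG3 at −0.67 and PARP1 at −0.59 in siMLK4 cells, all under the fold threshold. Without siMLK4 vehicle replicate 2 or siMLK4 doxorubicin replicate 2, PARP1 was at −0.74 and −0.73, and with upper-quartile scaling at −0.74. Between siMLK4 and siNT cells 0 of these 16 genes were called by limma with either treatment.

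In translesion synthesis, 1 of 13 genes was called as lower in each arm and 0 as higher, with medians of −0.15 and −0.014. REV1, the deoxycytidyl transferase that inserts C opposite abasic sites, fell by 0.78 in siNT cells and was at −0.73 in siMLK4 cells. POLK, a translesion polymerase, fell by 0.79 in siMLK4 cells and was at −0.74 in siNT cells. Scaled to library totals REV1 was at −0.55 and POLK at −0.63 in those arms, and with upper-quartile scaling REV1 was at −0.66. POLH, another such polymerase, was higher in siMLK4 than in siNT cells with vehicle, at 801 ± 68.4 against 448 ± 64.6 normalized reads (log2 fold change 0.78, limma adjusted p = 0.00025), the only call of this list between the siRNA arms, and not a call with only the groups compared in the fit. Calls were lost for REV1 without replicate 3 of siNT with vehicle (−0.70) or replicate 1 of siNT with doxorubicin (−0.71), for POLK without siMLK4 vehicle replicate 1 (−0.70), and for POLH without siNT vehicle replicate 1 (0.68) or siMLK4 vehicle replicate 1 (0.72).

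Of 15 genes of single-stranded DNA binding and ATR signalling, 1 was called as higher with doxorubicin in siNT cells and 2 in siMLK4 cells, with medians of −0.097 and 0.058. CLSPN, the mediator of CHK1 activation, rose by 0.90 and 0.81. RPA2, a subunit of the single-stranded DNA-binding complex, rose by 1.05 in siMLK4 cells and was at 0.68 in siNT cells. WEE1, an inhibitory kinase of CDK1, was higher in siMLK4 than in siNT cells by 0.99 with vehicle and by 1.34 with doxorubicin, the one gene of the list called between the arms. Without siMLK4 doxorubicin replicate 3, CLSPN was at 0.74 in siMLK4 cells.

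Among 21 E2F and DREAM regulators, 2 were called as higher with doxorubicin in siNT cells and 6 in siMLK4 cells, and 0 as lower, with medians of 0.21 and 0.24. E2F2 rose by 1.35 in siNT cells and 1.74 in siMLK4 cells, and E2F1 by 0.80 and 1.37, both activating E2F factors. E2F3, E2F5 and E2F7 rose by 0.82, 0.91 and 0.99 in siMLK4 cells, of which E2F7 is a repressor, and were at 0.26, 0.52 and 0.27 in siNT cells. Of the 21 genes, 7 had negative values in siNT cells and 9 in siMLK4 cells. Among them E2F4 was at −0.55 and −0.58 and E2F6 at −0.50 and −0.52, without a call. APOBEC3B, whose promoter these regulators act on, stood at −0.31 and −0.65 in the same comparisons. A link between its level and theirs was not tested. The differences of response of E2F1, E2F2, E2F3, E2F5 and E2F7 were not called. E2F1 and E2F2 were also called as higher in siMLK4 than in siNT cells with doxorubicin, by 0.91 and 0.78. Leaving out 1 library ended the calls of E2F1 in siNT cells (0.67 without vehicle replicate 3 and 0.67 without doxorubicin replicate 1) and of E2F3 (0.71 without siMLK4 vehicle replicate 3 and 0.68 without siMLK4 doxorubicin replicate 2). It also ended that of E2F2 between the arms (0.64 without siNT doxorubicin replicate 3, 0.78 and 0.68 without siMLK4 doxorubicin replicates 1 and 2).

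The interferon list moved in both directions. Of 28 interferon signalling factors and induced genes, 8 were called as higher and 3 as lower with doxorubicin in siNT cells, and 11 and 5 in siMLK4 cells, with medians of 0.37 and 0.19. OASL and DDX58 (RIG-I, a sensor of viral RNA) rose by 1.70 and 1.56 in siNT cells and by 1.57 and 1.16 in siMLK4 cells. OAS1, an RNase L activator, fell by 2.09 and 1.74. IFIT1, an inhibitor of viral translation, fell by 0.75 in siMLK4 cells and was at −0.12 in siNT cells, and CXCL10, a chemokine, was called as higher in siMLK4 cells, by 1.72, and was at 0.55 in siNT cells. CXCL10 is in the table through its doxorubicin groups alone, so its direction was favoured by the filter. Between siMLK4 and siNT cells 4 genes of this list were called as higher with vehicle and 3 with doxorubicin, IFIT1 by 2.07 and 1.45 among them. The drop of IFIT1 in siMLK4 cells was under the fold threshold with library totals (−0.57) and upper-quartile scaling (−0.71), and without siMLK4 vehicle replicate 3 (−0.70) or siMLK4 doxorubicin replicates 1 (−0.73) and 2 (−0.62).

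Of 20 NF-κB and PKC factors, 2 were called as higher and 1 as lower with doxorubicin in siNT cells, and 3 and 0 in siMLK4 cells, with medians of −0.17 and 0.0095. RELB, a subunit of the non-canonical NF-κB pathway, rose by 1.02 in siMLK4 cells and was at 0.38 in siNT cells. PRKCZ fell by 0.99 in siNT cells and was at −0.45 in siMLK4 cells. PRKCQ was called as higher, by 0.80 and 0.90 on the variance-stabilized scale. Its means with vehicle and doxorubicin were 4.03 and 25.6 normalized reads in siNT cells and 3.13 and 26.6 in siMLK4 cells. But it too is in the table through its doxorubicin groups alone. TNFAIP3, an NF-κB inhibitor, was lower in siMLK4 than in siNT cells by 1.02 with vehicle and 0.89 with doxorubicin, and PRKCH by 0.92 with vehicle. With only the groups compared in the fit, TNFAIP3 was not called with vehicle. PRKCZ was higher by 0.87 with doxorubicin. Without siNT doxorubicin replicate 2, PRKCQ was at 0.75 in siNT cells and not called.

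Other retroviral restriction factors gave 1 call of 15 with doxorubicin in siNT cells and 2 in siMLK4 cells, with medians of −0.13 and −0.14. HERC5, an ISG15 ligase, rose by 2.10 and 1.23, and IFITM2, an entry inhibitor, fell by 1.21 in siMLK4 cells and was at −0.67 in siNT cells. With MLK4 knock-down SERINC3 was lower by 0.99 with vehicle and 0.81 with doxorubicin (not called with library totals, at −0.73). TRIM22 was higher in siMLK4 cells by 1.05 with vehicle on the variance-stabilized scale, at 66.6 against 14.5 normalized reads. SLFN11 was higher by 0.78 with doxorubicin, a call that 13 of 22 alternatives ended, at 0.71 to 0.86. Among other polynucleotide deaminases and APOBEC1 cofactors, 5 of 10 were measured. ADARB2, a brain-enriched relative of the RNA adenosine deaminases, rose by 0.81 with doxorubicin in siNT cells and was at −0.35 in siMLK4 cells, while ADARB1, an active RNA editing enzyme, rose by 0.77 in siMLK4 cells, against 0.18 in the siNT arm. ADARB2 was at 0.73 without siNT doxorubicin replicate 1, and ADARB1 at 0.58, 0.70 and 0.59 without siMLK4 vehicle replicate 3 or siMLK4 doxorubicin replicates 1 and 2. ADARB1 was not called either with only the groups compared in the fit. Between the siRNA arms ADARB2 was called as lower in siMLK4 cells with doxorubicin, at −1.18 (limma adjusted p = 1.6e-05), the only such call of this list.

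**Figure D5:**
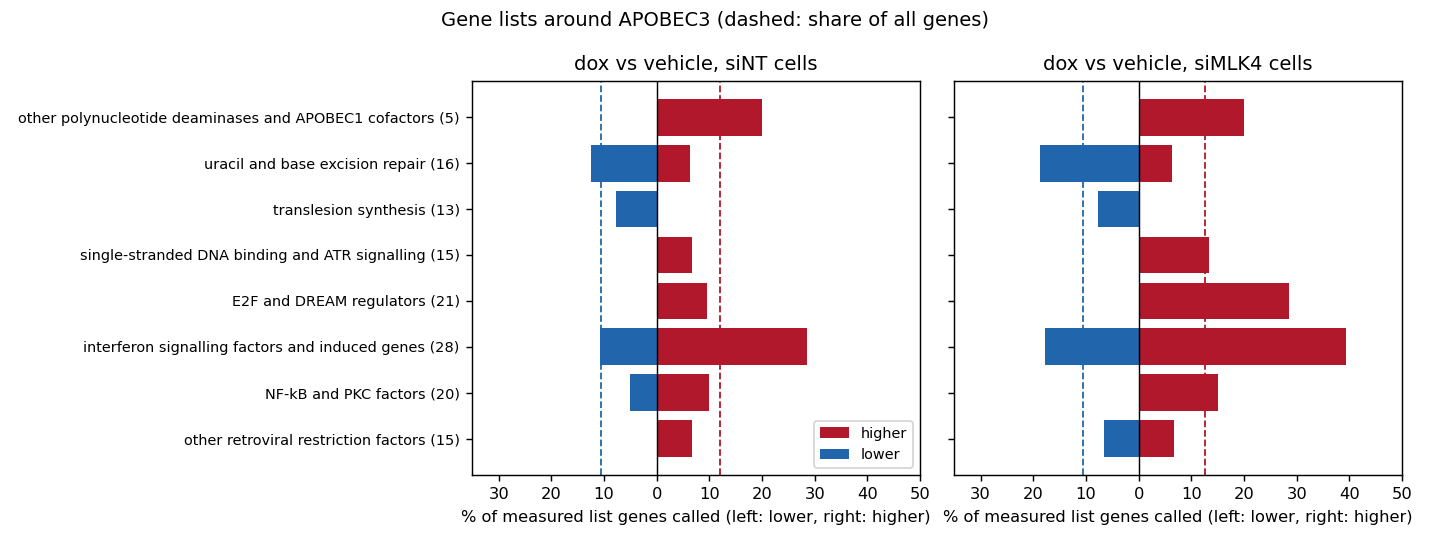
Percent of the measured genes of each of 8 lists that were called with doxorubicin, higher to the right in red and lower to the left in blue, in siNT cells (left panel) and siMLK4 cells (right panel), with the number of measured genes in brackets. Dashed lines give the share of all genes, 12.1% and 12.6% higher and 10.6% lower. The interferon list has 8 of 28 genes higher in siNT cells and 11 of 28 in siMLK4 cells.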

How the data were processed

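The table deposited by the authors holds log2 values per gene and library after a variance-stabilizing transformation, which was read from the values. According to the submitters' processing notes and the supplementary methods, reads were trimmed with Trimmomatic 0.39, mapped with HISAT2, freed of optical duplicates, counted by strand with HTSeq 0.6.0 and analysed with DESeq2 1.26.0. The notes name hg19 as the build and the methods GRCh38, and coordinates given here come from GENCODE release 44 by gene identifier. Inverting the transformation returned whole reads for 100% of values (tolerance 0.05 reads) and size factors from 0.852 to 1.20.

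Samples were grouped by their source names. Limma 3.58.1 in R 4.3.3 was fitted to the log2 values of all 12 libraries (4 group means, eBayes with a variance trend), and p-values were adjusted over 17013 genes by the Benjamini-Hochberg method. The APOBEC3 members, lists and rule for named genes were chosen with earlier results of these data known. Named were the measured members, MAP3K21, up to 5 called genes per list with the largest change, measured genes within 250 kb, and the 3 most correlated genes per member. In simulated data for doxorubicin in siNT cells, with 17013 genes, 54% of 2-fold and 91% of 3-fold changes were called, and 1 of 16813 unchanged genes.

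Equally numbered libraries deviated together, read from the values alone, for doxorubicin in siNT cells (correlations 0.460, 0.105 and 0.205) and for siMLK4 with doxorubicin (0.190, 0.516 and 0.559), not in the other comparisons (lowest −0.723). No replicate pair agreed within sampling noise (chi-square per degree of freedom at least 7.18). Alternatives were other scalings, log transformations, limma-voom, no trend, a filter of 10 reads in each library, the groups compared alone, a replicate block, another threshold and leaving out each library. Python 3.11.15 was used for tables. The level of 1 listed marker is not reported here.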

Additional observations from a re-analysis of the deposited data

Results flagged for a closer look

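Among the genes named from the lists, 3 were flagged because their doxorubicin response differed between siMLK4 and siNT cells in the test of that difference, at an adjusted p under 0.05. IFI27, a gene of the interferon list that was not among those named, passed the same threshold, at 0.81 ± 0.16 (SE, limma adjusted p = 0.025). These differences are on the variance-stabilized scale, which compresses changes of genes with few reads. For ADARB2 the response in siMLK4 cells minus that in siNT cells was −1.15 ± 0.17 (SE, limma adjusted p = 0.0055). Its means were 37.8 and 96.2 normalized reads with vehicle and doxorubicin in siNT cells and 36.7 and 21.5 in siMLK4 cells. For CXCL10 this difference was 1.17 ± 0.17 (SE, limma adjusted p = 0.0047). Its means were 3.38 and 15.1 normalized reads in siNT cells and 5.16 and 89.6 in siMLK4 cells. CXCL10 is in the table through its doxorubicin groups alone, so its values are given as the rule flagged them and nothing is read from them. For HERC5 it was −0.87 ± 0.16 (SE, limma adjusted p = 0.017), from 162 and 862 normalized reads in siNT cells and 294 and 758 in siMLK4 cells. Over the alternatives the difference ranged from −2.09 (limma-voom) to −1.08 for ADARB2. It ranged from 1.07 to 1.97 (the latter with log2(normalized reads + 1)) for CXCL10 and from −1.04 to −0.81 for HERC5. The adjusted p in limma ranged from 0.0047 to 0.025 for ADARB2, and from 0.0031 to 0.13 for CXCL10, where limma on log2(normalized reads + 1) gave 0.054 and limma-voom 0.13. For HERC5 it ranged from 0.014 to 0.069, with the highest value without siMLK4 doxorubicin replicate 1, and values over 0.05 also without siNT doxorubicin replicate 2 (0.058), siMLK4 vehicle replicate 2 (0.0504) or siMLK4 doxorubicin replicate 2 (0.054). None of the 4 measured APOBEC3 genes was flagged.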

How the results depend on the processing

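The doxorubicin response of APOBEC3C was called under all 22 alternatives in both arms, at −2.15 to −1.74 in siNT cells and −2.18 to −1.79 in siMLK4 cells. The APOBEC3G response in siNT cells lost its call with library totals (−0.67) and without siNT doxorubicin replicate 1. It ranged from −0.96 to −0.71 over the libraries left out. Over the 9 other alternatives with the same thresholds it ranged from −1.15 to −0.67 and was called in 8. So 1 to 2 of the 4 genes were called in siNT cells over the libraries left out, and 1 with library totals. In siMLK4 cells APOBEC3B gained a call with log2(normalized reads + 1) (−0.82), log2(normalized reads + 8) (−0.79) and limma-voom (−0.82), for 2 called genes each. At an adjusted p under 0.05 with no fold threshold, APOBEC3B in siNT cells (−0.31) and APOBEC3B and APOBEC3G in siMLK4 cells (−0.65 and −0.51) also passed, which makes 3 in each arm. The sign of small values turned. APOBEC3F in siNT cells was at 0.17 with library totals and 0.076 with upper-quartile scaling, and its difference of responses at −0.020 with the latter. Over the libraries left out APOBEC3F ranged from −0.093 to 0.025 with doxorubicin in siNT cells, −0.083 to 0.20 in siMLK4 cells, −0.11 to 0.17 for siMLK4 with vehicle and −0.064 to 0.22 for the difference of responses. APOBEC3C ranged from −0.22 to 0.17 for the difference of responses, and APOBEC3G from 0.20 to 0.46 for the same and from −0.11 to 0.14 for siMLK4 with doxorubicin. The cause was not tested.

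The number of genes called was 3859 and 3949 with doxorubicin in siNT and siMLK4 cells, 961 and 950 for siMLK4 with vehicle and with doxorubicin, and 47 for the difference of responses. At an adjusted p under 0.05 with no fold threshold it was 9745, 9858, 4381, 4219 and 204. For siMLK4 with vehicle it was 1613 with log2(normalized reads + 1), 1611 with log2(normalized reads + 8), 1483 with limma-voom and 611 with only the groups compared, and for siMLK4 with doxorubicin 1484 with log2(normalized reads + 8) and 1466 with limma-voom. Limma-voom called 5407 and 5605 genes with doxorubicin and 29 for the difference of responses, which ranged from 0 (without siMLK4 doxorubicin replicate 1) to 37 over the libraries left out. With the replicate block the counts were 3854, 3937, 951, 945 and 40, and no call of an APOBEC3 gene changed. Of 1487 values of other named genes under the alternatives, 76 lost their call and 2 gained one, and 0 turned. APOBEC3B, APOBEC3F and APOBEC3G had 68.3 to 261 normalized reads per library. At the mean reads of each of their groups, counting error alone is 6.57% to 10.3%, and it is larger in the libraries with fewer reads.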
